A study of Mus musculus with 6 samples.

Results

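The genes described are the SLC25 carriers, taken as every protein-coding gene of the deposited table whose mouse symbol is Slc25a followed by a number. The table holds 47 such genes among 25978 rows, and 40 of them passed a filter on low values that 15783 rows passed. RNA was sequenced from YFP-positive cells sorted from primary pancreatic tumours of KPCY mice, whose genotype is Pdx1-Cre, KrasLSL-G12D, Trp53fl/fl and Rosa26LSL-YFP on a C57BL/6 background. The mice were between 5 and 7 weeks old, and both groups carry all of these alleles. The groups are 3 libraries of EpCAM+ cells and 3 libraries of EpCAM- cells, EpCAM being a surface adhesion protein of epithelial cells. Pdx1-Cre recombines in the embryonic pancreas, so YFP marks pancreatic cells of tumour and of normal tissue alike. The submitters describe 3 biological replicates; no source used here says if equal numbers mean one tumour or if animals were pooled, and p-values measure only the spread between these libraries. The comparison asks which carriers differ in RNA level between the epithelial and the mesenchymal cells of these tumours, and each difference below is the EpCAM- mean less the EpCAM+ mean, in the log2 units the authors deposited. Where 3 values are given for a group, they are in the order of replicates 1, 2 and 3.

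SLC25 proteins are the solute carriers of the inner mitochondrial membrane. A typical member is built from similar repeats that cross the membrane, and it exchanges one metabolite for another or moves one along with protons. Together they pass ADP and ATP, phosphate, citrate, malate, aspartate, glutamate, iron, cofactors and nucleotides between the cytosol and the matrix. They therefore join glycolysis, lipid synthesis and amino acid metabolism to the respiratory chain. A few members sit elsewhere, such as Slc25a17 in peroxisomes and Slc25a46 in the outer mitochondrial membrane.

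The sort was visible in the RNA. Epcam had log2 levels of 15.06, 14.90 and 14.89 in EpCAM+ replicates 1, 2 and 3 and of 8.42, 8.22 and 7.22 in EpCAM- replicates 1, 2 and 3 (limma adjusted p = 7.43e-06). All 5 epithelial markers fell and all 4 mesenchymal markers rose in EpCAM- libraries. Acinar markers, of which 6 of 6 fell, had a summed log2 level between 15.46 and 16.44 in EpCAM+ and between 8.74 and 8.98 in EpCAM- libraries. The 8 fibroblast markers, of which 7 rose, ran between 10.33 and 13.77 in EpCAM+ and between 15.14 and 17.34 in EpCAM- libraries, highest of EpCAM+ in replicate 1 and lowest of EpCAM- in replicate 3. Islet markers, of which 5 of 5 fell, lay between 10.02 and 12.92 against 5.50 and 6.43, and immune markers, of which 4 of 5 tested fell, between 9.72 and 11.94 against 8.19 and 8.91. Endothelial markers, of which 1 of 3 tested rose, lay between 6.12 and 6.73 against 7.30 and 7.39, and the adipocyte gene Adipoq was too low to test. These marker levels move with the groups in every comparison below, and their part in the carrier differences was not tested. In sorted pools, a smaller share of one kind of cell and less RNA per cell cannot be told apart.

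Carriers changed in both directions, and no single direction held for the family. Of the 40 tested members, 5 rose in EpCAM- cells, 11 fell and 24 did not pass, with limma p-values adjusted by Benjamini-Hochberg over all tested genes and a threshold of 0.05. The number that rose was 3 without EpCAM+ replicate 3 and 3 without EpCAM- replicate 3. The share of all tested genes past the same test was 43.4% (20.3% higher, 23.1% lower), so the 16 of 40 carriers were close to the background. The median difference was -0.13 over the tested carriers and 0.0043 over all tested genes. A difference of at least 1 log2 unit was reached by 4 members that rose and 6 that fell, 10 of 40, against 23.9% of all tested genes. Slc25a2, counted here among those that rose, passed the filter of 10 only through the group where it is high. Its difference was 0.94 with a pseudocount of 1 and 0.72 with a pseudocount of 5. For 22 of the 40 the 2 groups had separate ranges of values, as had 56.3% of all tested genes. Differences ran from -1.91 for Slc25a35 to 1.25 for Slc25a12. Summed after back-transformation, the 47 genes took 0.217%, 0.213% and 0.212% of an EpCAM+ library and 0.214%, 0.186% and 0.174% of an EpCAM- library.

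**Figure D1:**
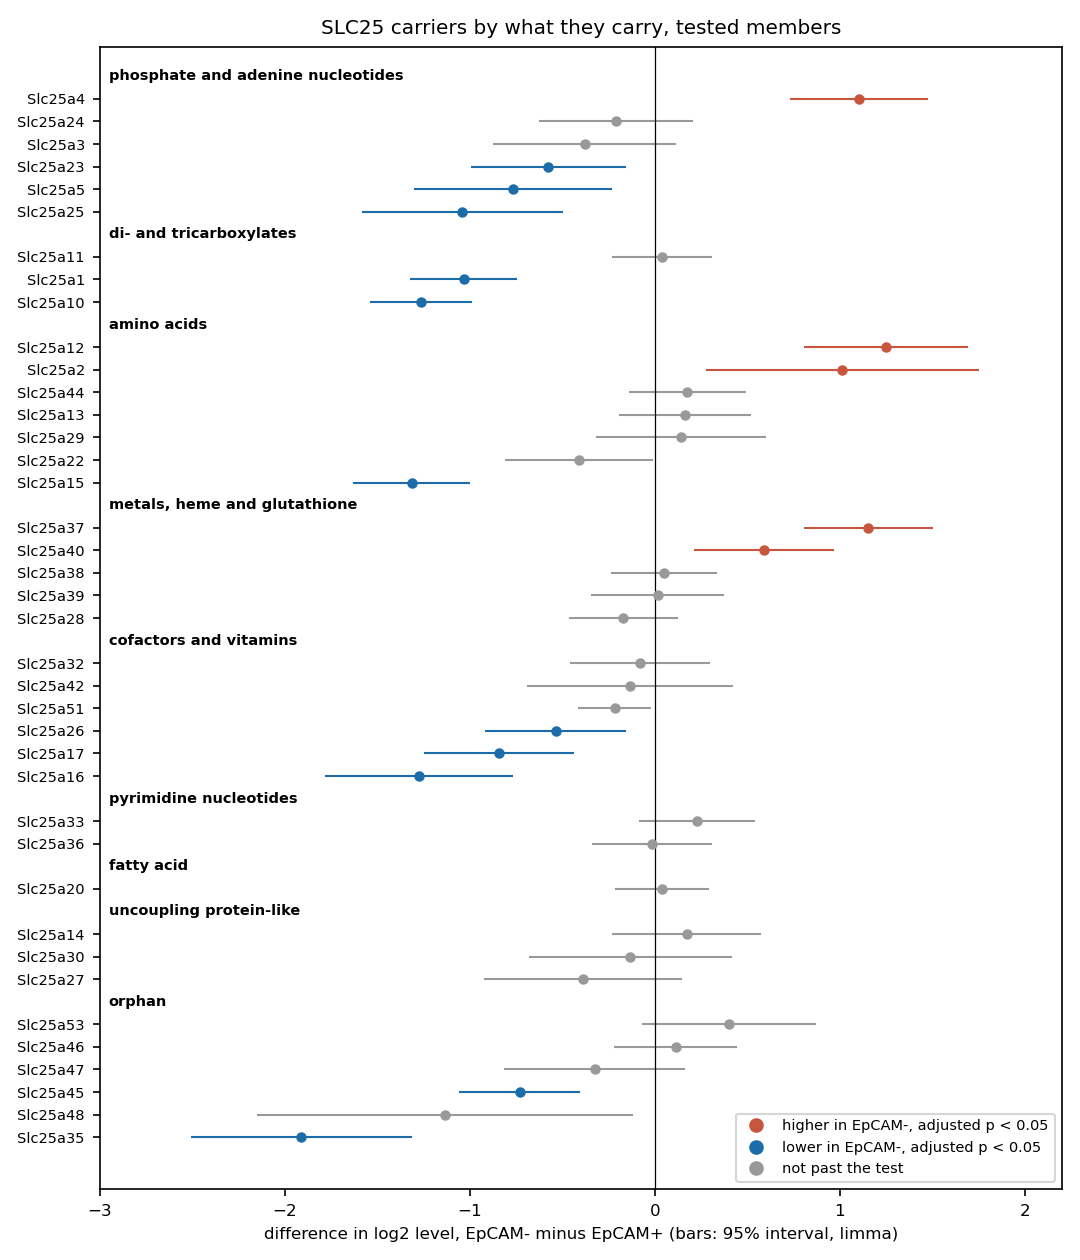
Difference in log2 level (x axis, EpCAM- minus EpCAM+) for the tested carriers, grouped by what they carry, with 1 member not shown. Points are differences of group means with 95% intervals from limma, red for the 5 members that rose, blue for the 11 that fell and grey for those that did not pass.

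The carriers that serve ATP synthesis split by isoform. ADP/ATP carriers bring ADP into the matrix and let ATP out. Slc25a4, the form that dominates in heart and skeletal muscle (ENSMUSG00000031633, GRCm38 chromosome 8, 46206797 to 46211284), had log2 levels of 11.71, 11.55 and 11.32 in EpCAM+ replicates 1, 2 and 3 and of 12.89, 12.44 and 12.57 in EpCAM- replicates 1, 2 and 3. Every EpCAM- library lay above every EpCAM+ library. The gene rose by 1.10 ± 0.16 (SE), or 2.15-fold, with a limma adjusted p of 0.00142. Slc25a5, the form of most dividing tissues (ENSMUSG00000016319, chromosome X, 36795651 to 36798807), had 12.49, 12.19 and 12.56 in EpCAM+ libraries and 12.16, 11.40 and 11.38 in EpCAM- libraries. It fell by 0.77 on the log2 scale (SE 0.23, limma adjusted p = 0.0307), with the groups separated by a narrow gap at EpCAM- replicate 1. That call was lost in limma with EpCAM+ replicate 1 dropped (adjusted p = 0.0865), with EpCAM+ replicate 3 dropped (0.104), and likewise for EpCAM- replicate 2 (0.0894) or 3 (0.0915). Slc25a31, the form known from testis, was too low to test, at log2 levels between 1.68 and 3.35 in the 6 libraries. Of 3 skeletal muscle markers listed, 2 were in the table and 1 was tested. Ckm, too low to test, was at most 0.76 on the log2 scale in any library. Acta1 had a difference of -0.20 (limma adjusted p = 0.598). Any part of muscle cells in the Slc25a4 difference was not tested.

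No source used here says that the values were scaled by gene length, and the values per kb assume that they were not. Levels of different genes were set side by side only after division by exonic length. On that scale Slc25a4 made up 28.9%, 30.9% and 22.9% of the summed level per kb of the ADP/ATP carriers in the EpCAM+ libraries, against 53.8%, 58.9% and 61.3% in the EpCAM- libraries. The leading form was thus Slc25a5 in each EpCAM+ library and Slc25a4 in each EpCAM- library. The log2 ratio of Slc25a4 to Slc25a5 per kb averaged -1.40 ± 0.31 for EpCAM+ and 0.47 ± 0.23 for EpCAM- (SD over 3 libraries each). It differed by 1.87 with no overlap, and the two-sided exact permutation p was 0.1, the smallest that 3 libraries against 3 can give. As the 2 genes alone separated the groups in opposite directions, their ratio could not overlap. The permutation p was thus fixed in advance and adds no support. The order of 2 genes on this scale also depends on which of their annotated exons the cells use, which values per gene do not show.

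Phosphate enters the matrix through Slc25a3 (chromosome 10, 91116574 to 91124059), and ATP synthase needs it as a substrate. Its log2 levels were 13.52, 13.68 and 13.55 in EpCAM+ and 13.51, 13.37 and 12.73 in EpCAM- replicates 1, 2 and 3. The difference of -0.38 ± 0.21 (SE) did not pass (limma adjusted p = 0.187), although the groups did not overlap, and EpCAM- replicate 3 stood lowest. With array weights it passed (adjusted p = 0.0433).

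The ATP-Mg/phosphate carriers adjust the adenine nucleotide pool of the matrix in response to calcium. Slc25a25 (chromosome 2, 32414487 to 32451445) had 11.62, 12.24 and 12.03 in EpCAM+ and 10.76, 11.35 and 10.65 in EpCAM- replicates 1, 2 and 3, and it fell by 1.04 on the log2 scale (SE 0.23, limma adjusted p = 0.00984). It shares 379 exonic bases with Naif1 on the opposite strand, which fell by 0.47 (limma adjusted p = 0.0388), and no source used here says that counting used strand. Slc25a23 had 10.63, 10.74 and 10.46 in EpCAM+ and 9.72, 10.37 and 10.01 in EpCAM- libraries, a fall of 0.58 with a limma adjusted p of 0.0358. The call for Slc25a23 was lost under 7 of 15 alternatives, among them the one without any filter (adjusted p = 0.0505), and for 5 of the 6 libraries left out singly, where the p lay between 0.0616 and 0.110. Slc25a24, per kb the most abundant of the 3 in every library, did not pass. It stood at 12.59, 12.64 and 12.43 against 12.72, 12.09 and 12.22, with a difference of -0.21 whose 95% interval runs from -0.63 to 0.21. Without EpCAM- replicate 1 it passed, at -0.40 and an adjusted p of 0.0259 in limma. Slc25a41, a form without the calcium-binding domain, stayed between -1.51 and -1.40, at the bottom of the scale.

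**Figure D2:**
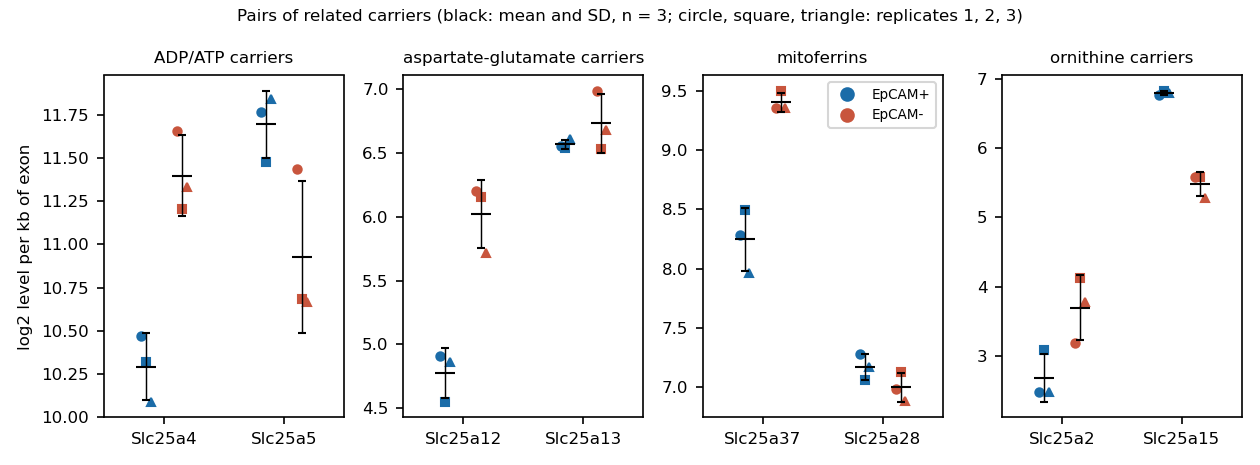
Log2 level per kb of exon (y axis) of 4 pairs of related carriers in each library, with black bars for the mean and SD of 3 libraries per group. Slc25a4 and Slc25a5 exchange places between the groups, Slc25a12 and Slc25a37 are higher in EpCAM- libraries beside partners whose groups overlap, and Slc25a2 and Slc25a15 differ in opposite directions.

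Of the di- and tricarboxylate carriers, 2 of 3 tested fell, where 23.1% of all tested genes did. Slc25a1 exports citrate, the carbon source of cytosolic acetyl-CoA for fatty acid and sterol synthesis. It had log2 levels of 11.08, 11.16 and 11.29 in EpCAM+ and 10.26, 9.94 and 10.23 in EpCAM- replicates 1, 2 and 3. Slc25a1 (ENSMUSG00000003528, chromosome 16, 17925223 to 17928219) fell by 1.03 (SE 0.12, limma adjusted p = 0.000588), with no overlap between the groups. Slc25a10 exchanges malate or succinate for phosphate (ENSMUSG00000025792, chromosome 11, 120491840 to 120499187). Its levels were 10.61, 10.49 and 10.59 against 9.43, 9.12 and 9.35, a fall of 1.26 (SE 0.12, limma adjusted p = 0.000183) and the smallest p of the family. Slc25a11 trades oxoglutarate for malate in the malate-aspartate shuttle. It had 10.35, 10.41 and 10.22 in EpCAM+ and 10.54, 10.26 and 10.30 in EpCAM- libraries, and its difference of 0.040 had a 95% interval from -0.23 to 0.31 (limma adjusted p = 0.806). The groups overlapped, and a change of more than 0.31 in either direction lay outside that interval. Slc25a21, which carries oxoadipate and oxoglutarate, was too low to test at 2.26, 2.15 and 2.49 against 3.93, 3.21 and 3.11. It shares 189 exonic bases with Pax9 on the opposite strand.

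The aspartate-glutamate carriers, the partners of Slc25a11 in that shuttle, differed from each other. Slc25a12, also called aralar (ENSMUSG00000027010, chromosome 2, 71271063 to 71367749), is the form of brain and muscle, and Slc25a13, citrin, the form of liver. Slc25a12 had log2 levels of 7.79, 7.42 and 7.74 in EpCAM+ replicates 1, 2 and 3 and of 9.08, 9.03 and 8.59 in EpCAM- replicates 1, 2 and 3. It rose by 1.25 ± 0.19 (SE), or 2.38-fold, the largest increase among the tested carriers (limma adjusted p = 0.00179). Slc25a13 stood at 8.48, 8.47 and 8.53 against 8.91, 8.46 and 8.61, with overlapping groups and a difference of 0.16 (95% interval from -0.19 to 0.52, limma adjusted p = 0.417). Per kb, Slc25a13 stayed above Slc25a12 in all 6 libraries. The log2 ratio of Slc25a12 to Slc25a13 moved from -1.80 ± 0.18 to -0.71 ± 0.30 (SD, n = 3 per group) with no overlap, at the smallest exact permutation p, 0.1. The gap in Slc25a12 was wider than the values of Slc25a13 could offset, so this ratio could not overlap. That permutation p was thus fixed by the values of the single genes and adds no support.

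These promoter stretches are of 3 of the genes, in both directions, that passed under all 15 alternatives and whose windows hold no annotated exon. Each is the 250 bases before a RefSeq start on GRCm38.p6, read 5′ to 3′ on the gene's strand, and capitals mark matches to the motifs named below. Slc25a1 (chr16:17928220-17928469, minus strand) and Slc25a16 (chr10:62920383-62920632, plus strand) fell, and Slc25a12 (chr2:71367756-71368005, minus strand) rose.
Slc25a1: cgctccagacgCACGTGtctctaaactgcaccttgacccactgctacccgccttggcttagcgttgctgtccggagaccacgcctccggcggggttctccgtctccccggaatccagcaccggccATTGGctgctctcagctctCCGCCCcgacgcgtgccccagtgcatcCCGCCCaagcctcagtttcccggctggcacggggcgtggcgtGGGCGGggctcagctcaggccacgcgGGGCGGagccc
Slc25a16: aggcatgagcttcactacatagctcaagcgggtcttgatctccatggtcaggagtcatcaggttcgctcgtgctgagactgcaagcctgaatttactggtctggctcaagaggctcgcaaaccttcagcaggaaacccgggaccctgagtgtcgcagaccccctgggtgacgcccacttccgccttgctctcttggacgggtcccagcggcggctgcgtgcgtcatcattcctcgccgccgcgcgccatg
Slc25a12: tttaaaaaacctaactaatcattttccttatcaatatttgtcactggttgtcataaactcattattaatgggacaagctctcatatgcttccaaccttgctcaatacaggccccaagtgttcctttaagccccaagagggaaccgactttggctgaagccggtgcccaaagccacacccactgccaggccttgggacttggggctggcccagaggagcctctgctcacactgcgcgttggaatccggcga
The motifs, searched on both strands, were GGGCGG (Sp1), CCAAT (the CCAAT box), CACGTG (the canonical E-box), CAGGTG (an E-box of Snail and Zeb factors), CCGGAAG (Ets), TNAAGGTCA (the ERR receptors) and the palindromic NRF1 motif. A window was held for 36 of the 47 carriers, with 46 windows in all. GGGCGG was in 32 of these 46 windows, 69.6%, and in 32.7% of the 32851 windows of all genes. CACGTG was in 8 of 46, 17.4%, against 6.02% of all windows, and CAGGTG in 8 of 46 against 17.2%. CCAAT was in 21 of 46, 45.7%, against 33.8%, and CCGGAAG in 6 of 46, 13.0%, against 6.91%. The NRF1 motif and TNAAGGTCA were in 0 of the 46 windows and in 0.782% and 1.14% of all windows. None of these motifs contains another. GC content differed as well, with a median of 57.4% in carrier windows and 52.4% in all windows. The windows of one gene can overlap, and a match describes letters only. In the stretches shown, Slc25a1 has matches to 3 of the motifs, and Slc25a16, which fell, and Slc25a12, which rose, to none. Slc25a25, which fell, also passed under all 15 alternatives and has a window without annotated exon. That window is not shown and has matches to GGGCGG and CCAAT. Split by the test, GGGCGG was in 10 of 13 windows of members that fell and 1 of 3 windows of members that rose. It was in 19 of 23 windows of members that did not pass and 2 of 7 windows of untested members. With only 3 windows of members that rose, no contrast is drawn.

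Among the other amino acid carriers were the ornithine carriers. Slc25a15 (ENSMUSG00000031482, chromosome 8, 22375551 to 22398597) exchanges ornithine for citrulline and links the matrix to the urea cycle and to polyamine and proline synthesis. Its log2 levels were 9.26, 9.32 and 9.29 in EpCAM+ and 8.08, 8.08 and 7.78 in EpCAM- replicates 1, 2 and 3. It fell by 1.31 (SE 0.13, limma adjusted p = 0.000299), a 2.48-fold difference with little spread in either group. Slc25a2, a second ornithine carrier annotated as a single exon (chromosome 18, 37637377 to 37638745), had 2.93, 3.54 and 2.94 against 3.64, 4.57 and 4.23. Its rise of 1.01 (limma adjusted p = 0.0355) is that of a gene at the filter, with a mean back-transformed value of 8.95 in EpCAM+ and 18.4 in EpCAM- libraries. Slc25a2 thus passed the filter of 10 only through the group where it is high, and without it 4 members rose. The call was lost under 5 of 14 alternatives. Those were the fits without EpCAM+ replicate 1, EpCAM+ replicate 3, EpCAM- replicate 2 or EpCAM- replicate 3 and the one without 2 of these libraries, with adjusted p between 0.0931 and 0.195. Per kb Slc25a2 stayed below Slc25a15 in each library.

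Glutamate, branched-chain and basic amino acid carriers did not pass. The glutamate carrier Slc25a22 had 8.65, 8.64 and 8.87 in EpCAM+ and 8.54, 8.36 and 8.03 in EpCAM- libraries, without overlap, and a difference of -0.41 at a limma adjusted p of 0.0892. It passed with array weights (adjusted p = 0.0226) and without EpCAM- replicate 1 (adjusted p = 0.0396). The related Slc25a18 was too low to test, between 2.34 and 3.26 in the 6 libraries. Slc25a44, a carrier of branched-chain amino acids, and Slc25a29, of basic amino acids, had differences of 0.18 and 0.14.

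Of 5 tested carriers of iron, glutathione and glycine for heme, 2 rose and 0 fell. The share past the test in either direction was 40.0%, against 43.4% of all tested genes. The share that rose was also 40.0%, against 20.3% of all tested genes, and whether these differ was not tested. Slc25a37, mitoferrin 1, imports iron for heme and iron-sulfur clusters and is best known from developing red cells (ENSMUSG00000034248, chromosome 14, 69241848 to 69285112). It had log2 levels of 10.88, 11.08 and 10.55 in EpCAM+ and of 11.94, 12.09 and 11.94 in EpCAM- replicates 1, 2 and 3. The rise was 1.15 ± 0.15 (SE), or 2.23-fold, with a limma adjusted p of 0.00087, and every EpCAM- library lay above every EpCAM+ library. Red cell genes were near the bottom of the scale, with none of the 4 markers in the table past the filter, and their summed log2 level lay between 3.81 and 4.79 in EpCAM+ and between 3.94 and 4.86 in EpCAM- libraries. The general form, Slc25a28 or mitoferrin 2, stood at 9.19, 8.97 and 9.08 against 8.89, 9.04 and 8.79, with a difference of -0.17 (95% interval from -0.47 to 0.12, limma adjusted p = 0.307). The log2 ratio of Slc25a37 to Slc25a28 per kb averaged 1.07 ± 0.33 for EpCAM+ and 2.40 ± 0.059 for EpCAM- (SD over 3 libraries each, exact permutation p = 0.1). The gap in Slc25a37 was wider than the values of Slc25a28 could offset, so the ratio could not overlap and its permutation p adds no support.

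Slc25a40 and Slc25a39 supply the matrix with glutathione. Slc25a40 had 7.87, 7.79 and 7.48 in EpCAM+ and 8.22, 8.27 and 8.41 in EpCAM- libraries and rose by 0.59 (SE 0.16, limma adjusted p = 0.0222). The call was lost without EpCAM+ replicate 2 (adjusted p = 0.0506), EpCAM+ replicate 3 (0.077) or EpCAM- replicate 3 (0.0725). Slc25a39, more abundant than Slc25a40 per kb in every library, was at 11.09, 11.09 and 11.12 against 11.45, 10.99 and 10.91, a difference of 0.016 at a limma adjusted p of 0.941. The spread of Slc25a39 was wider in EpCAM- (SD 0.29) than in EpCAM+ libraries (SD 0.016). Slc25a38, which brings glycine into the matrix for heme synthesis, had a difference of 0.050 (limma adjusted p = 0.769).

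Of 7 tested carriers of cofactors, 3 fell and 0 rose. The share past the test in either direction was 42.9%, against 43.4% of all tested genes. The share that fell was also 42.9%, against 23.1% of all tested genes, and whether these differ was not tested. Slc25a16, linked to coenzyme A in the matrix (chromosome 10, 62920633 to 62946498), had 8.67, 8.50 and 8.63 in EpCAM+ and 7.65, 7.44 and 6.89 in EpCAM- libraries. It fell by 1.27 (SE 0.22, limma adjusted p = 0.00319), and EpCAM- replicate 3 stood lowest. Slc25a17, the peroxisomal carrier of coenzyme A and related nucleotides, fell by 0.84 (SE 0.17, limma adjusted p = 0.00697), from 11.57, 11.24 and 11.17 to 10.79, 10.29 and 10.37. That call was lost without EpCAM+ replicate 1 and EpCAM- replicate 3 together (limma adjusted p = 0.0673). Slc25a26, which imports the methyl donor S-adenosylmethionine, had 7.42, 7.57 and 7.53 against 7.12, 6.82 and 6.98. Its fall of 0.53 (limma adjusted p = 0.0328) was lost under 8 of 15 alternatives, among them quantile normalisation, at -0.24 and an adjusted p of 0.286. It was also lost in each fit without one library other than EpCAM- replicate 1 (adjusted p between 0.072 and 0.103) and with the replicate number as a block (adjusted p = 0.0645). Slc25a26 shares 144 exonic bases with the opposite-strand gene Lrig1, whose mean log2 level was 12.21 and which rose by 1.07 (limma adjusted p = 0.00467). The NAD carrier Slc25a51 was tight in both groups, at 11.23, 11.27 and 11.22 against 11.04, 11.00 and 11.03, and the difference of -0.22 did not pass (limma adjusted p = 0.072). It passed after quantile normalisation (adjusted p = 0.0426) and with array weights (adjusted p = 0.0466). The carrier of folate or FAD, Slc25a32, and a carrier of coenzyme A, Slc25a42, had differences of -0.081 and -0.13 and did not pass (limma adjusted p = 0.716 and 0.679).

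The pyrimidine nucleotide carriers, which feed mitochondrial DNA and RNA synthesis, did not pass. Slc25a33 had 7.78, 7.85 and 7.91 in EpCAM+ and 8.14, 8.10 and 7.99 in EpCAM- libraries, without overlap, and a difference of 0.23 at a limma adjusted p of 0.205. After quantile normalisation Slc25a33 passed, at 0.45 and an adjusted p of 0.0259. Slc25a36 stood at 10.98, 10.80 and 10.84 against 10.60, 11.06 and 10.91, with a difference of -0.016. Slc25a20, which carries acylcarnitines into the matrix for fatty acid oxidation, was likewise close between the groups. Its levels were 9.35, 9.26 and 9.20 against 9.36, 9.21 and 9.36, and the 95% interval of the difference ran from -0.22 to 0.29 (limma adjusted p = 0.8). The members that resemble uncoupling proteins, Slc25a14, Slc25a27 and Slc25a30, all failed the test, with differences of 0.17, -0.39 and -0.13.

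Among members not placed in a substrate group here, which include the outer membrane protein Slc25a46, 2 of 6 tested fell, against 23.1% of all tested genes. Slc25a35 (ENSMUSG00000018740, chromosome 11, 68968131 to 68974365) had log2 levels of 7.28, 7.08 and 7.40 in EpCAM+ and 5.06, 5.82 and 5.16 in EpCAM- replicates 1, 2 and 3. Its fall of 1.91 (SE 0.25, limma adjusted p = 0.00101), a 3.76-fold difference, was the largest among the 40 tested Slc25a members. Slc25a35 shares 1151 of its 3677 exonic bases with Rangrf on the opposite strand, and as no source used here says that counting used strand, reads of the shared part cannot be assigned. Rangrf itself had a difference of -0.054 (limma adjusted p = 0.895). Slc25a45 fell by 0.73 (SE 0.14, limma adjusted p = 0.00509), from 8.83, 8.70 and 8.78 to 7.91, 8.23 and 7.99. That call was lost without EpCAM+ replicate 1 and EpCAM- replicate 3 together (limma adjusted p = 0.0701). Slc25a48 had a large difference of -1.13 but spread widely within both groups, at 7.58, 8.65 and 8.57 against 7.68, 6.32 and 7.40, and did not pass (limma adjusted p = 0.0697). It passed with array weights (adjusted p = 0.0429) and without replicate 1 of EpCAM+ (0.0366) or of EpCAM- (0.0476). Slc25a46, Slc25a47 and Slc25a53 had differences of 0.11, -0.33 and 0.40, none past the test. Slc25a34, Slc25a43 and Slc25a54 were too low to test, and with Slc25a18, Slc25a21, Slc25a31 and Slc25a41 they make up the 7 members below the filter.

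**Figure D3:**
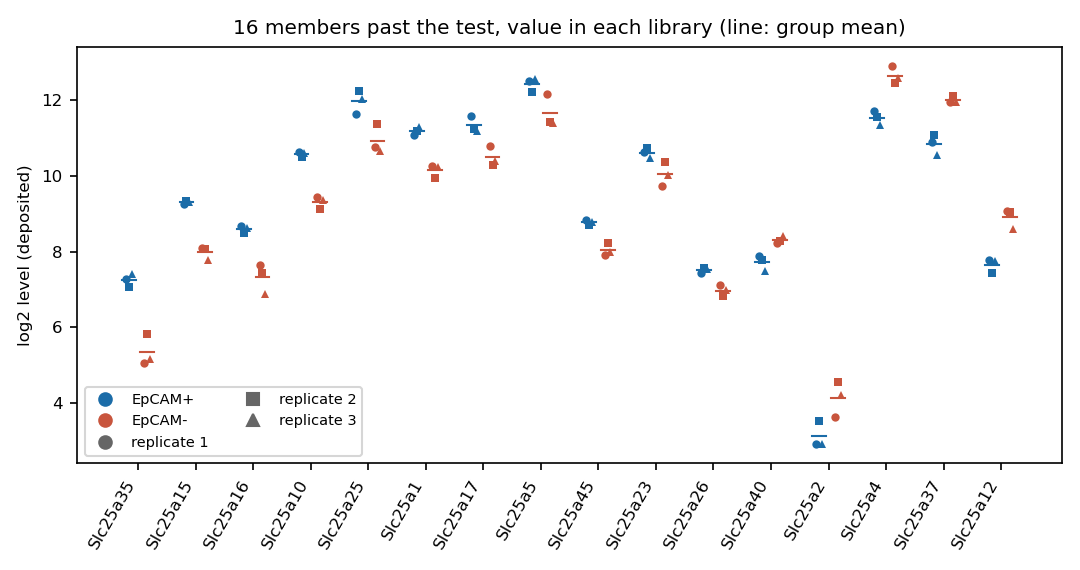
Deposited log2 level (y axis) in each library of the 16 members past the test, ordered by their difference, with a line at each group mean. The 3 EpCAM+ and 3 EpCAM- libraries do not overlap for any of these members, and the gap is narrowest for Slc25a5. The members were chosen by a test on these same values, so their separation is not further evidence.

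SLC25 proteins named by other symbols, and the pyruvate carrier, were compared in the same fit. Ucp2, an uncoupling protein of the same family that exports dicarboxylates from the matrix, had log2 levels of 13.07, 12.82 and 13.19 in EpCAM+ and 10.89, 9.76 and 11.05 in EpCAM- replicates 1, 2 and 3. It fell by 2.46 (SE 0.33, limma adjusted p = 0.00105), more than any of the 40 tested carriers. Ucp1 and Ucp3 were too low to test. Mtch1 and Mtch2, outer membrane relatives of the carriers, had differences of 0.39 and 0.34 that did not pass (limma adjusted p = 0.127 and 0.0778). Mtch1 passed without EpCAM- replicate 3 and Mtch2 with upper-quartile scaling. The subunits of the mitochondrial pyruvate carrier both fell, Mpc1 by 0.69 (limma adjusted p = 0.0377) and Mpc2 by 0.43 (limma adjusted p = 0.0237). Both calls were lost after quantile normalisation, at adjusted p of 0.0886 and 0.0762. They were also lost without EpCAM+ replicate 1 (0.0795 for Mpc1, 0.0805 for Mpc2), EpCAM+ replicate 3 (0.133 and 0.0954) and EpCAM- replicate 3 (0.092 and 0.0683), and that of Mpc1 also with the replicate block (0.0684) and without replicate 2 of EpCAM+ (0.0592) or of EpCAM- (0.0553).

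Most other nuclear genes of mitochondria did not pass. Over 230 tested genes of 14 lists, among them the respiratory chain, the mitochondrial ribosome and protein import, 16 rose, 28 fell and 186 did not pass, so 19.1% passed where 43.4% of all genes did. Whether that share differs from that of the carriers was not tested. The number that fell was 71 with EpCAM- replicate 1 left out and 17 with EpCAM- replicate 3 left out. It was 18 when EpCAM+ replicate 1 was dropped, and with EpCAM+ replicate 3 dropped 15 fell and 9 rose. Of 36 tested subunits of complex I, 0 rose and 3 fell, but 12 fell without EpCAM- replicate 1, 9 with array weights and 1 without EpCAM+ replicate 3. Of 17 ATP synthase genes 0 passed, with a median difference of -0.080, while 5 fell without EpCAM- replicate 1 and 2 with array weights. Among 78 proteins of the mitochondrial ribosome, 3 rose and 8 fell. Without EpCAM- replicate 1, 18 of them fell, and without EpCAM+ replicate 3, 0 rose and 3 fell. The other single libraries left out gave 5 that fell. For the tricarboxylic acid cycle and pyruvate dehydrogenase, of 23 tested members, 3 rose and 5 fell, with 9 falling when EpCAM- replicate 1 was dropped and 3 when EpCAM+ replicate 1, EpCAM+ replicate 2 or EpCAM- replicate 3 was. The malic enzyme gene Me2 rose by 1.51 (limma adjusted p = 0.000423), and Idh2, which makes NADPH in the matrix, fell by 0.91 (limma adjusted p = 0.00882). Of 23 protein import genes, 4 rose and 1 fell, a balance that turned to 4 falling and 3 rising without EpCAM- replicate 1. Without EpCAM+ replicate 3, 1 rose and 0 fell, and 2 rose and 0 fell without EpCAM+ replicate 2 or without EpCAM- replicate 3. Of 11 tested biogenesis regulators, 2 rose, 4 fell and 5 did not pass, with 2 falling when EpCAM+ replicate 1, EpCAM+ replicate 3 or EpCAM- replicate 3 was dropped. Ppargc1b, a coactivator of mitochondrial genes, was 5.65-fold lower (limma adjusted p = 0.000319) and its partner Esrra fell by 1.00 (limma adjusted p = 0.00139), while the Ets factor subunit Gabpa rose by 0.93 (limma adjusted p = 0.00188). In the calcium uniporter complex, Mcub, an inhibitory subunit, rose by 3.00 (limma adjusted p = 0.000142).

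Genes encoded by mitochondrial DNA moved with the groups. Of the 13 protein-coding ones, 7 fell and 0 rose, with a median difference of -0.43, where 23.1% of all tested genes fell. Dropping EpCAM+ replicate 1 left 2 that fell and dropping EpCAM+ replicate 2 left 3, and 4 fell when either EpCAM+ replicate 3 or EpCAM- replicate 3 was dropped. Their share of the summed back-transformed values was 1.91%, 1.79% and 1.91% for EpCAM+ and 0.954%, 1.23% and 1.15% for EpCAM-, with no overlap. Their part in the carrier differences was not tested.

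**Figure D4:**
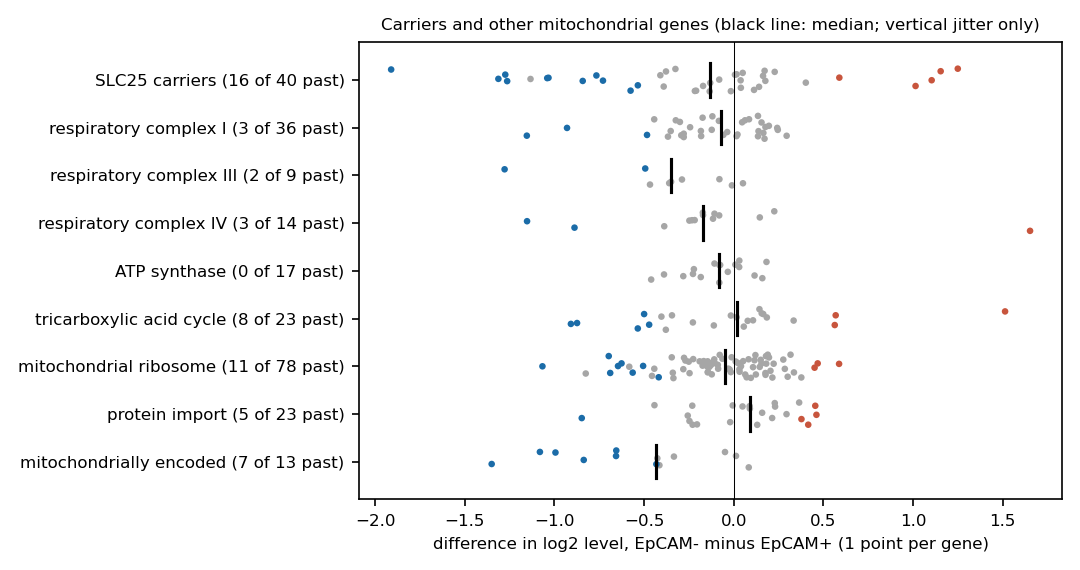
Difference in log2 level (x axis, EpCAM- minus EpCAM+) of each tested gene in the carrier family and in other mitochondrial lists, red where higher and blue where lower past the test, with a black line at each median. The carrier points reach from -1.91 to 1.25, while the ATP synthase genes all lie between -0.46 and 0.18.

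Per kb of exon, the same 4 carriers had the highest means in both groups, in a different order. In EpCAM+ libraries the mean log2 level per kb was 11.69 ± 0.19 for Slc25a5, 11.11 ± 0.085 for Slc25a3, 10.77 ± 0.11 for Slc25a24 and 10.29 ± 0.19 for Slc25a4 (SD, n = 3). In EpCAM- libraries it was 11.40 ± 0.23 for Slc25a4, 10.93 ± 0.44 for Slc25a5, 10.73 ± 0.41 for Slc25a3 and 10.56 ± 0.34 for Slc25a24 (SD, n = 3). Slc25a1, the fifth in EpCAM+ at 10.06 ± 0.10, overlapped Slc25a4 and lay above it in replicate 3, at 10.17 against 10.09. In the EpCAM- order, the last 3 of these lay within their spread of each other. Slc25a37 moved from rank 12 to rank 6 of 47 and Slc25a12 from rank 33 to 25, while Slc25a10 moved from 11 to 17 and Slc25a35 from 31 to 40.

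Of the 16 members past the test, 9 passed under all 15 alternatives that were run. These were Slc25a4, Slc25a12 and Slc25a37, which rose, and Slc25a1, Slc25a10, Slc25a15, Slc25a16, Slc25a25 and Slc25a35, which fell. No member past the test changed direction under any of them.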

How the data were processed

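The submitters' processing notes list STAR (2.5.2), RSEM, DESeq2 (1.24.0) and GRCm38 without their roles; libraries came from a KAPA mRNA HyperPrep kit, per the labels' protocols. The deposited values are log2 levels normalised between libraries by the authors, with a transform not given in the sources used here, so depth is unknown. Rarely read genes bunch near the lowest value, -1.52. Identifiers were matched to GENCODE M21 (25846 of 25978). Genes averaging at least 10 after back-transformation entered limma 3.58.1 (R 4.3.3, trended variance, no covariate, two-sided, Benjamini-Hochberg over 15783 genes), which was tested on simulated data.

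The members, lists, pairs, motifs and tests were chosen with earlier results of these data known. Library values are given for members past the test by at least 1 log2 unit (up to 10 each way) and for a listed set of carriers and relatives; other named genes, among them Slc25a17, Slc25a21, Slc25a26, Slc25a45 and Slc25a48, were added after their values were seen, and 1 member that did not pass is counted but not reported here by name. Per-kb values subtract the log2 of annotated exonic length. Alternatives were pseudocounts of 1 and 5, no filter, a minimum of 50, quantile and upper-quartile scaling, a replicate block, array weights, and libraries left out.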

Additional observations from a re-analysis of the deposited data

How the results depend on the processing

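Leaving out one library at a time gave between 3 and 5 carriers higher and between 8 and 13 lower. For the other nuclear mitochondrial genes it gave 9 to 20 higher and 15 to 71 lower. The numbers for all tested genes then lay between 2134 and 3325 higher and between 2853 and 3975 lower. Without EpCAM+ replicate 1 and EpCAM- replicate 3 together, 3 carriers were higher and 6 lower, 5 and 8 of the other mitochondrial genes, and 1907 of all genes were higher. The cause was not tested, but fewer libraries were compared there. Quantile normalisation gave 28 higher among the other mitochondrial genes, and array weights gave 55 lower, and the cause was not tested. Among the carriers, 7 were higher and 11 lower after quantile normalisation, and 5 were higher and 15 lower with array weights. Quantile normalisation moved the median of all tested genes by 0.13 and the carriers' median to -0.0075, and 3 carriers without a call changed sign.

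The replicate number as a block left 5 carriers higher and 10 lower, Slc25a26 being the call lost. Deviations from the group mean correlated at 0.41, 0.0438 and 0.165 between libraries of number 1, 2 and 3, so the numbers were not taken as pairs, and not every library correlated best with its own number. The depth is unknown, so what it limits cannot be stated.

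Of the 8 ratios of related carriers, 4 did not overlap between the groups, each with the smallest exact permutation p of 0.1 (0.2 adjusted over the 8). Of all tested genes, 56.3% did not overlap, but that is a share of single genes and not of ratios, so the shares are not alike. For Slc25a4 to Slc25a5 and Slc25a2 to Slc25a15, both genes alone separated the groups in opposite directions, so these ratios could not overlap. Slc25a2 also passed the filter only through the group where it is high.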
